A study of Drosophila melanogaster with 6 samples.

Results

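The genes described here are the cuticle protein and chitin enzyme genes of Drosophila melanogaster that the array annotation names Cpr, Lcp, Ccp84, Twdl, Edg, Acp65A, obst-, Gasp, serp, verm, kkv or Cht. They were chosen by symbol alone, with 1 probe set per gene, the one with the highest mean over the 6 arrays. In all 126 of 11982 genes with a probe set of their own were members, read by 131 probe sets, and 4 of them had more than 1 probe set. A further 6 probe sets of the family stood for several genes at once and were not used, among them 1 shared by Cpr67Fa1 and Cpr67Fa2, which are members through probe sets of their own.

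RNA came from the proventriculus of larvae at the third instar, on 6 Affymetrix Drosophila 2.0 expression arrays. Every larva, the controls included, was of the strain hairy-gal4 UAS-neoGFP, in which a Gal4 driver named for the segmentation gene hairy runs a UAS transgene named neoGFP. The design held 2 arrays from unchallenged larvae and 2 from larvae challenged with G418, an aminoglycoside toxic to eukaryotic cells. It also held 1 array from F3 unchallenged larvae without past exposure and 1 from F3 unchallenged larvae whose ancestors had been exposed in F1. The labels name neither the dose of G418 nor the number of larvae pooled, and do not say that replicate arrays stem from separate dissections. A p-value here therefore reflects array-to-array spread that may be technical.

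The proventriculus, or cardia, is a valve where the foregut folds into the anterior midgut. Its foregut layers are ectodermal and secrete a cuticle of chitin fibres and cuticle proteins, while midgut cells of the same organ secrete the peritrophic matrix, a sleeve of chitin and chitin-binding proteins that lines the gut. Chitin is polymerised by a synthase, modified by deacetylases, bound by structural proteins and cut by chitinases, mostly at moults.

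All values below are on the log2 scale, summarised with RMA by the authors, so a difference of 1 is 2-fold. They are given in the order replicate 1 then 2, and for F3 larvae without, then with past exposure. The value of a probe set depends on its probes, so levels of different genes are not compared. The median of all probe sets, 4.98 as a mean over the 6 arrays, serves only to separate brighter from dimmer probe sets. By this measure 51 of 126 members (40.5%) were at or above it, against 63.7% of all genes. The chitin synthase, deacetylases, chitinases and chitin-binding proteins made up 22 members, of which 21 were at or above it. Of the 104 structural cuticle proteins (Cpr, Lcp, Ccp84, Twdl, Edg and Acp65A) 30 were at or above it and 74 below.

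Across the arrays, markers of other tissues differed. The mean log2 value of 10 salivary gland markers was 6.39 to 7.12 for the F3 arrays and unchallenged replicate 1, against 9.34 to 12.84 for the remaining 3. That of 6 nervous system markers was 7.41 on unchallenged replicate 2 and 4.49 to 4.88 elsewhere, and that of 4 fat body markers was 7.28 in F3 larvae without past exposure against 11.10 to 13.78 elsewhere. Of 8 measured markers of the foregut and proventriculus, 7 were at or above the value of 4.98 on G418 replicate 1. The count was also 7 in F3 larvae without past exposure, and it was 8 on each other array. Among them drm, which patterns the foregut, lay between 9.76 and 11.28, and the proventriculus gene dve between 10.30 and 11.58. The marker below 4.98 on those arrays was dpp, which lay between 4.58 and 5.89. The upper quartile of all probe sets was lowest for G418 replicate 1, at 7.78, and highest for unchallenged replicate 2, at 8.10. The mean of 4 tracheal markers ran from 5.51 to 6.21. Of these, uif lay between 6.81 and 7.84 and kni between 5.89 and 6.69, while btl lay between 4.80 and 5.79 and vvl between 4.24 and 4.91.

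**Figure D1:**
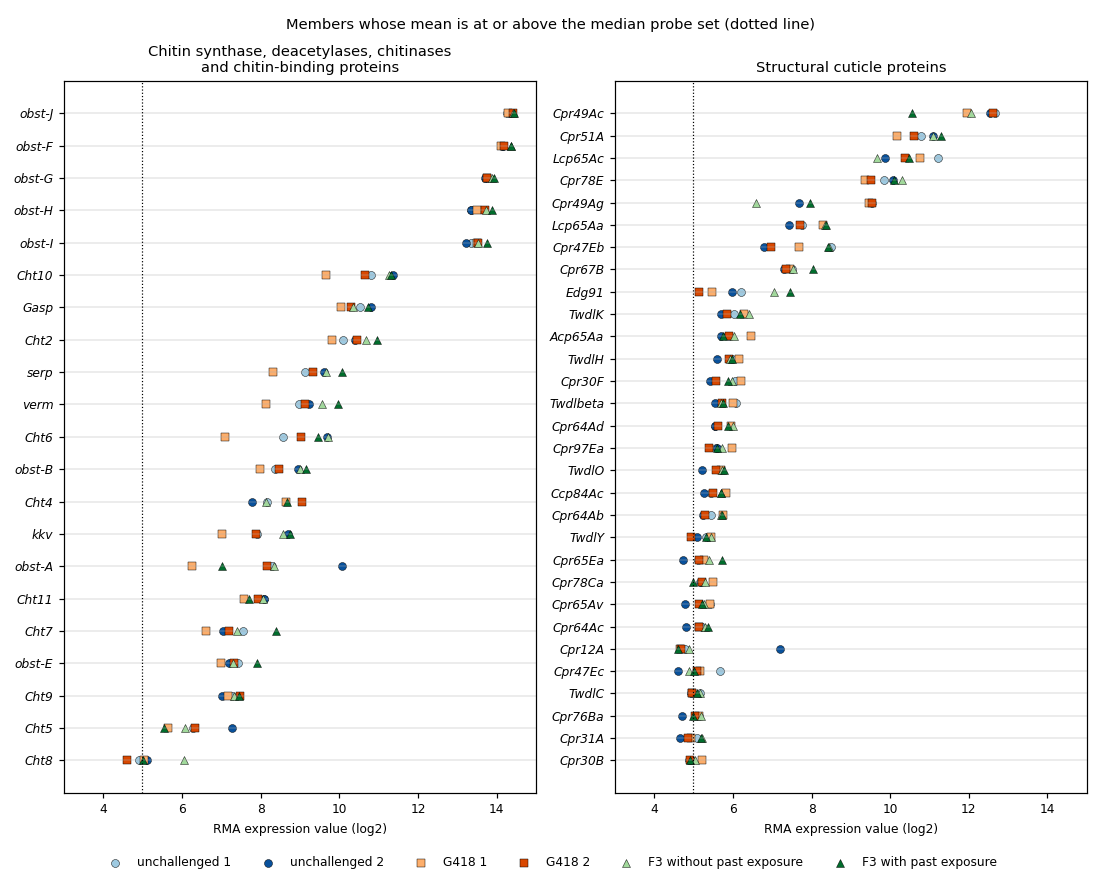
RMA expression values (log2, x axis) of the 51 members whose mean over 6 arrays is at or above the median probe set of 4.98 (dotted line), with the chitin enzymes and chitin-binding proteins on the left and structural cuticle proteins on the right. Each symbol is 1 array. obst-F to obst-J sit above 13.2 on every array, near the top of the scale. By contrast obst-A, Cht6, Cpr49Ag, Cpr12A, Edg91 and Cpr49Ac are spread over more than 2 log2 units.

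No member passed the test of G418 against unchallenged larvae, 0 of 126 against 0.0% of all probe sets in limma. Both G418 arrays lay above both unchallenged ones for 27 members (21.4%) and below them for 13 (10.3%), against 18.3% and 20.1% of all genes. Among those below were kkv, Cht10, Gasp, obst-A, Cpr51A and Edg91, and among those above Cht4, obst-H and obst-I. kkv encodes the chitin synthase of ectodermal epithelia, and its values were 7.90 and 8.70 in unchallenged larvae, 7.01 and 7.89 after G418 and 8.56 and 8.75 in F3 larvae. Both G418 arrays were thus below both unchallenged arrays, though G418 replicate 2 was only just below unchallenged replicate 1. The log2 change with G418 was -0.85 ± 0.43 (SE), 1.80-fold lower, with an adjusted p of 0.788 in limma over all 18769 probe sets. It was -0.41 without G418 replicate 1 and -1.29 without G418 replicate 2. The threshold was 0.05. At an unadjusted p under 0.05 the count was 4 members (3.17%), 1 higher and 3 lower with G418, against 4.26% of all genes (2.18% higher, 2.09% lower) and 3.54% of all probe sets. These members were Cht4, higher, and Edg91, Cpr78E and TwdlT, lower. In bulk RNA, fewer cells of a type and less RNA per cell cannot be told apart.

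The deacetylases serp and verm remove acetyl groups from chitin and are known from tracheal tubes. They lie side by side in the RefSeq gene table, and their values put the 6 arrays in the same order. The values of serp were 9.12 and 9.61 in unchallenged larvae, 8.30 and 9.33 after G418 and 9.67 and 10.07 in F3 larvae. Those of verm were 8.98 and 9.22 in unchallenged larvae, 8.13 and 9.12 after G418 and 9.55 and 9.97 in F3 larvae. For both, G418 replicate 1 was the lowest array and the F3 array with past exposure the highest. G418 replicate 2 lay among the unchallenged values, so the groups overlapped, with log2 changes of -0.55 ± 0.41 (SE) for serp and -0.48 ± 0.38 (SE) for verm. For serp it was -0.037 without G418 replicate 1 and -1.06 without G418 replicate 2.

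Chitinases cut chitin. Of the 10 measured, 7 had a negative log2 change with G418 and 3 a positive one, and 0 passed the test. Cht10, known with Cht5 from the turnover of cuticle at moults, had values of 10.80 and 11.36 in unchallenged larvae, 9.66 and 10.65 after G418 and 11.27 and 11.31 in F3 larvae. Both G418 arrays were below both unchallenged arrays, with a log2 change of -0.92 ± 0.41 (SE). It was -0.42 without G418 replicate 1 and -1.41 without G418 replicate 2. Cht6 was at 8.57 and 9.70 in unchallenged larvae, 7.10 and 9.02 after G418 and 9.71 and 9.46 in F3 larvae. Its lowest array, G418 replicate 1, was 1.47 below the next lowest, while G418 replicate 2 lay between the unchallenged arrays. A second probe set of Cht6 also had its lowest value on G418 replicate 1, 6.11 against 6.80 to 7.80 elsewhere. The log2 change of Cht6 was -1.07 ± 0.78 (SE), and it was -0.11 without G418 replicate 1 and -2.04 without G418 replicate 2.

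Cht5 was at 6.27 and 7.27 in unchallenged larvae, 5.65 and 6.34 after G418 and 6.08 and 5.53 in F3 larvae. Its highest array was unchallenged replicate 2 and the groups overlapped. Cht2 was at 10.10 and 10.39 in unchallenged larvae, 9.82 and 10.45 after G418 and 10.69 and 10.96 in F3 larvae, with groups that overlapped and the highest value on the F3 array with past exposure. Cht7 was at 7.56 and 7.04 in unchallenged larvae, 6.62 and 7.19 after G418 and 7.40 and 8.38 in F3 larvae, and the same F3 array was the highest.

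Cht4 was the one member with a positive change and an unadjusted p under 0.05. Its values were 8.16 and 7.77 in unchallenged larvae, 8.64 and 9.06 after G418 and 8.14 and 8.67 in F3 larvae. Both G418 arrays were above both unchallenged arrays, with a log2 change of 0.89 ± 0.24 (SE), 1.85-fold higher (adjusted p = 0.788 in limma). Cht4 lies in a run with Cht8, Cht12 and Cht9 in the RefSeq table. The log2 change was -0.19 for Cht8, 0.07 for Cht12 and 0.18 for Cht9, and the groups of all 3 overlapped. The difference of Cht4 from its neighbours was not tested.

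The obst- genes and Gasp encode secreted proteins with chitin-binding domains of the peritrophin type. obst-J was at 14.26 and 14.35 in unchallenged larvae, 14.30 and 14.40 after G418 and 14.42 and 14.44 in F3 larvae. obst-F was at 14.13 and 14.16 in unchallenged larvae, 14.11 and 14.20 after G418 and 14.37 and 14.38 in F3 larvae. obst-G was at 13.76 and 13.71 in unchallenged larvae, 13.76 and 13.76 after G418 and 13.87 and 13.93 in F3 larvae. These 3 genes varied by at most 0.26 over all arrays. They lay near the top of the scale, where the highest mean of any gene was 14.91, and a change there can be compressed, so no stable expression is read from them.

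obst-H was at 13.34 and 13.35 in unchallenged larvae, 13.50 and 13.72 after G418 and 13.74 and 13.88 in F3 larvae. obst-I was at 13.35 and 13.22 in unchallenged larvae, 13.49 and 13.54 after G418 and 13.52 and 13.75 in F3 larvae. In both, the G418 arrays lay above the unchallenged arrays, by 0.26 and 0.23 on the log2 scale, and the F3 array with past exposure was the highest. The limit on values near the top of the scale holds for them too. Peritrophin-15a and Peritrophin-15b, structural proteins of the peritrophic matrix and no members, lay there as well, between 14.72 and 14.82 on all 6 arrays.

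obst-A, which organises chitin in the larval cuticle, varied most among the chitin-binding members. Its values were 8.28 and 10.06 in unchallenged larvae, 6.26 and 8.17 after G418 and 8.34 and 7.02 in F3 larvae. The 2 arrays within each replicated group differed by 1.78 and 1.91, about as much as the groups did, although both G418 arrays were below both unchallenged arrays. The log2 change was -1.95 ± 0.91 (SE), 3.87-fold lower, with an adjusted p of 0.788 in limma. Leaving out 1 array at a time it was -1.06 without unchallenged replicate 2, -2.84 without unchallenged replicate 1, -0.998 without G418 replicate 1 and -2.91 without G418 replicate 2. Unchallenged replicate 2 was the highest array for obst-A and also for the mean of the nervous system markers. It was the highest for the mean of 11 ecdysone genes too (8.45 against 6.88 to 7.23 elsewhere). Among the 11, ImpE1 and ImpE2 were higher there than on unchallenged replicate 1 by 5.05 and 6.73. The median difference of the 11 was 0.34, and 7 were higher on replicate 2. The part of these markers and genes in the result was not tested.

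Gasp, a chitin-binding protein of the tracheal lumen, was at 10.53 and 10.80 in unchallenged larvae, 10.04 and 10.30 after G418 and 10.34 and 10.73 in F3 larvae. Both G418 arrays were below both unchallenged arrays (log2 change -0.50 ± 0.18 (SE), adjusted p = 0.788 in limma). obst-B was at 8.36 and 8.95 in unchallenged larvae, 7.98 and 8.46 after G418 and 8.99 and 9.14 in F3 larvae, and obst-E at 7.44 and 7.20 in unchallenged larvae, 6.9996 and 7.32 after G418 and 7.30 and 7.92 in F3 larvae. Their groups overlapped. The second probe set of obst-E also had its highest value on the F3 array with past exposure, at 7.30.

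As a group, the 22 chitin enzymes and chitin-binding proteins had a median log2 change of -0.26 with G418, and 14 (63.6%) had a negative change. Over all genes at or above the median probe set the median was -0.11 and 63.9% were negative (52.3% of all genes), so for the 22 together the share was near the background. Subsets of the group gave other shares, with no test of the difference. Of the 13 chitin enzymes 10 (76.9%) were negative, with a median of -0.40. Setting aside obst-F to obst-J, a choice made after their values were seen, 14 of 17 (82.4%) were negative, with a median of -0.44 and G418 wholly below unchallenged for 5 (29.4%). Among the 22 members, for 5 (22.7%) the G418 arrays both lay under the unchallenged pair and for 3 (13.6%) both lay over it, against 26.2% and 13.9% of those brighter genes and 20.1% and 18.3% of all genes. Without G418 replicate 1 the group's median was -0.05 and 12 members were negative. Without G418 replicate 2 the median was -0.46 and 15 were negative.

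Replicate arrays also differed across these 22 genes. G418 replicate 2 was above G418 replicate 1 for 19 of the 22 (86.4%), against 69.9% of the genes at or above the median probe set and 54.4% of all genes. Unchallenged replicate 2 was above replicate 1 for 15 (68.2%), against 58.9% and 50.5%. The median difference per gene was 0.39 between the G418 arrays and 0.14 between the unchallenged arrays, against 0.16 and 0.08 over the brighter genes. The 104 structural members ran the other way. Lower on replicate 2 were 82 (78.8%) in the unchallenged pair and 82 (78.8%) in the G418 pair, against 49.5% and 45.6% of all genes. Of the 74 dimmer structural genes 77.0% and 78.4% were lower, against 64.4% and 72.9% of all genes below the median probe set. Of the 30 brighter structural genes 83.3% and 80.0% were lower, against 41.1% and 30.1% of all brighter genes. These 30 were dimmer than that background, with a median of the gene means of 5.7 against 8.05. The part of signal level in this gap was not tested. The upper quartile of all probe sets was lower on replicate 1 of each pair, and its part in these differences was not tested. Of the foregut markers, all 8 measured had a negative log2 change (median -0.53), against 52.3% of all genes and 63.9% of the brighter genes. G418 was wholly below unchallenged for 4 of the 8, against 20.1% and 26.2%. The mean of the 8 was 8.07 for G418 replicate 1 against 8.73 to 9.21 elsewhere. The mean of the salivary gland markers was highest on G418 replicate 1, at 12.84.

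**Figure D2:**
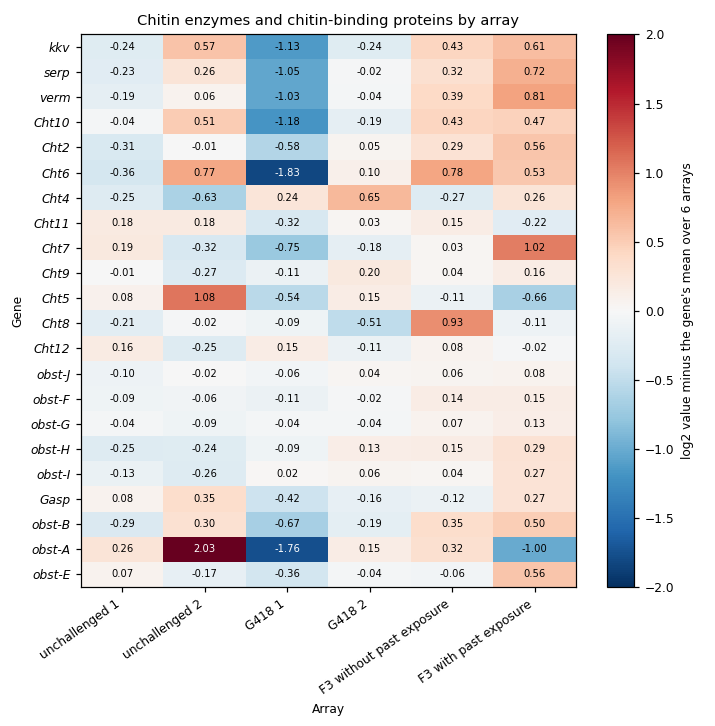
Each row is 1 of the 22 chitin enzyme and chitin-binding genes and each column 1 array; colour and number give the log2 value minus the gene's mean over the 6 arrays. G418 replicate 1 is the lowest column for kkv, serp, verm, Cht10, Cht6 and obst-A, and the rows of obst-J, obst-F and obst-G, near the top of the scale, are nearly flat.

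The Cpr genes encode proteins with the Rebers-Riddiford chitin-binding domain, and 19 of the 66 measured were at or above the median probe set. By the order of genes in RefSeq, 72 of the 126 members lay in 23 runs with no other protein-coding gene between them. The longest run held 6. With G418, 49 Cpr genes had a positive and 17 a negative log2 change, from -1.33 to 0.90. Of the 24 Twdl genes 14 were positive and 10 negative (-1.90 to 0.35), and of the 7 Lcp genes 6 were positive and 1 negative (-0.05 to 0.40).

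The Cpr genes with the highest means were Cpr49Ac, Cpr51A and Cpr78E. Cpr51A was at 10.79 and 11.09 in unchallenged larvae, 10.17 and 10.60 after G418 and 11.10 and 11.30 in F3 larvae. Cpr78E was at 9.85 and 10.07 in unchallenged larvae, 9.37 and 9.51 after G418 and 10.30 and 10.11 in F3 larvae. In both, the G418 arrays were below the unchallenged arrays and did not overlap them. The log2 change was -0.55 ± 0.22 (SE) for Cpr51A and -0.52 ± 0.16 (SE) for Cpr78E, each with an adjusted p of 0.788 in limma. Cpr49Ac was at 12.65 and 12.53 in unchallenged larvae, 11.96 and 12.63 after G418 and 12.05 and 10.56 in F3 larvae. G418 replicate 2 lay between the unchallenged arrays, and the F3 array with past exposure was 1.39 below the lowest of the other 5.

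Some Cpr genes differed more between the 2 unchallenged arrays than between groups. Cpr49Ag was at 9.53 and 7.67 in unchallenged larvae, 9.47 and 9.53 after G418 and 6.59 and 7.97 in F3 larvae. Unchallenged replicate 1 and both G418 arrays were close to each other, and unchallenged replicate 2 and both F3 arrays were lower. Cpr47Eb was at 8.50 and 6.80 in unchallenged larvae, 7.68 and 6.98 after G418 and 8.43 and 8.42 in F3 larvae. Cpr47Ec was at 5.67 and 4.60 in unchallenged larvae, 5.16 and 5.10 after G418 and 4.89 and 5.01 in F3 larvae, and for both the G418 values lay between the unchallenged ones.

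Cpr12A was at 4.79 and 7.20 in unchallenged larvae, 4.65 and 4.68 after G418 and 4.88 and 4.59 in F3 larvae. Its high value was on unchallenged replicate 2 alone, 2.32 above the next array. Its log2 change was -1.33 ± 0.84 (SE), and it was -0.13 without unchallenged replicate 2. Cpr11B was at 4.995 and 5.34 in unchallenged larvae, 4.56 and 4.78 after G418 and 5.01 and 4.92 in F3 larvae, with G418 below unchallenged on both arrays and a log2 change of -0.50 ± 0.19 (SE) (adjusted p = 0.788 in limma).

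Tweedle proteins are a family of insect cuticle proteins, and 6 of the 24 measured Twdl genes were at or above the median probe set. TwdlK was at 6.02 and 5.69 in unchallenged larvae, 6.28 and 5.85 after G418 and 6.40 and 6.18 in F3 larvae. TwdlH was at 5.97 and 5.59 in unchallenged larvae, 6.16 and 5.90 after G418 and 5.93 and 5.98 in F3 larvae. Twdlbeta was at 6.09 and 5.56 in unchallenged larvae, 5.999 and 5.71 after G418 and 5.69 and 5.75 in F3 larvae. All 3 had overlapping groups and unchallenged replicate 2 as the lowest array.

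TwdlE was the Twdl gene with the greatest spread, at 3.94 and 6.28 in unchallenged larvae, 3.28 and 3.15 after G418 and 3.28 and 3.08 in F3 larvae. Like Cpr12A it was high on unchallenged replicate 2 alone. Its log2 change was -1.90 ± 0.82 (SE) with an adjusted p of 0.788 in limma, and it was -0.73 without unchallenged replicate 2 and -3.07 without unchallenged replicate 1. TwdlT was at 4.44 and 4.46 in unchallenged larvae, 4.03 and 4.09 after G418 and 4.33 and 4.47 in F3 larvae, below on both G418 arrays (log2 change -0.39 ± 0.13 (SE)). TwdlX was at 4.70 and 4.49 in unchallenged larvae, 5.03 and 4.87 after G418 and 5.08 and 4.86 in F3 larvae, above on both (log2 change 0.35 ± 0.16 (SE)). These last differences were of dim probe sets, and both had an adjusted p of 0.788 in limma.

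Cpr12A and TwdlE were the only 2 members called in any fit that left out 1 array. Without unchallenged replicate 1, limma called 2 members (Cpr12A and TwdlE, both lower with G418) and 251 of 18769 probe sets, against unchallenged replicate 2 alone. The neuronal gene fne was at 9.69 on that array and at most 3.92 on the others, and the glial gene repo at 7.42 and at most 3.49. Cpr65Ec, named after its values were seen, was also high there, at 5.13 against at most 3.92 elsewhere. Other genes stood apart on the same array. The ecdysone-inducible ImpE1 was at 10.11 against at most 5.06 elsewhere, and ImpE2 at 11.86 against at most 5.81. Of 4 disc markers, Dll was at 5.97 there against at most 4.94 elsewhere, and ap at 5.26 against at most 5.09. The disc markers nub and vg had their lowest values there, at 8.85 and 4.26. The part of these tissues and genes in the values of the members was not tested.

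Lcp genes encode larval cuticle proteins, Ccp84 genes a cluster of cuticle proteins, Acp65Aa an adult cuticle protein, and Edg genes were named for their dependence on the steroid ecdysone. Lcp65Ac was at 11.23 and 9.86 in unchallenged larvae, 10.76 and 10.37 after G418 and 9.66 and 10.48 in F3 larvae. It overlapped between groups, and unchallenged replicate 1 was the highest array. Lcp65Aa was at 7.76 and 7.42 in unchallenged larvae, 8.28 and 7.70 after G418 and 8.33 and 8.38 in F3 larvae, and Lcp65Ad at 4.44 and 4.37 in unchallenged larvae, 4.38 and 4.33 after G418 and 4.55 and 4.39 in F3 larvae. A second Lcp65Aa probe set, which can bind related transcripts, lay between 4.01 and 4.48. Genes of the Lcp65A cluster resemble each other in sequence, so their probes may not fully separate them.

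Edg91 had the smallest p of all members in the test of G418. Its values were 6.21 and 5.98 in unchallenged larvae, 5.46 and 5.15 after G418 and 7.05 and 7.45 in F3 larvae. Both G418 arrays were below both unchallenged arrays and both F3 arrays were above them, with a log2 change with G418 of -0.79 ± 0.19 (SE), 1.73-fold lower (adjusted p = 0.788 in limma). Acp65Aa was at 5.91 and 5.71 in unchallenged larvae, 6.47 and 5.89 after G418 and 6.04 and 5.75 in F3 larvae, and Edg84A at 3.25 and 3.24 in unchallenged larvae, 3.62 and 3.40 after G418 and 3.64 and 3.60 in F3 larvae. Acp65Aa overlapped between groups, and Edg84A was below the median probe set on every array.

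Of the Ccp84 genes, Ccp84Ac was at 5.45 and 5.27 in unchallenged larvae, 5.84 and 5.49 after G418 and 5.70 and 5.71 in F3 larvae. Ccp84Ae was at 4.93 and 4.53 in unchallenged larvae, 5.46 and 4.74 after G418 and 5.05 and 4.86 in F3 larvae. Ccp84Ag was at 3.38 and 3.26 in unchallenged larvae, 3.14 and 3.29 after G418 and 3.07 and 3.12 in F3 larvae. The last was dim throughout, and for Ccp84Ac both G418 arrays were above both unchallenged arrays, by 0.31 on the log2 scale.

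The 104 structural genes had a median log2 change of 0.10 with G418, and 74 (71.2%) were positive. For the 74 below the median probe set the median was 0.10 and 71.6% were positive, near the 0.09 and 68.1% of all 4347 genes below it. For the 30 at or above it the median was 0.14 and 21 (70.0%) were positive, against -0.11 and 36.1% of all genes at or above it. The 2 sets are not alike in signal: the median of the gene means was 5.7 for the 30 and 8.05 for all genes at or above it. The part of signal level in this difference was not tested. Both G418 arrays were above both unchallenged arrays for 24 structural genes (23.1%) and below for 8 (7.69%), against 18.3% and 20.1% of all genes. The remaining 72 structural genes overlapped. Among the 30 brighter structural genes, 4 (13.3%) were above and 4 (13.3%) below, against 13.9% and 26.2% of all brighter genes. Among the 74 dimmer ones, 20 were above and 4 below, against 26.0% and 9.32% of all genes below the median probe set. These differences were not tested. Over all 126 members the median change was 0.06, against -0.02 over all genes, and 40 (31.7%) had groups that did not overlap, against 38.4% of all genes. Without G418 replicate 1 the members' median was -0.01.

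**Figure D3:**
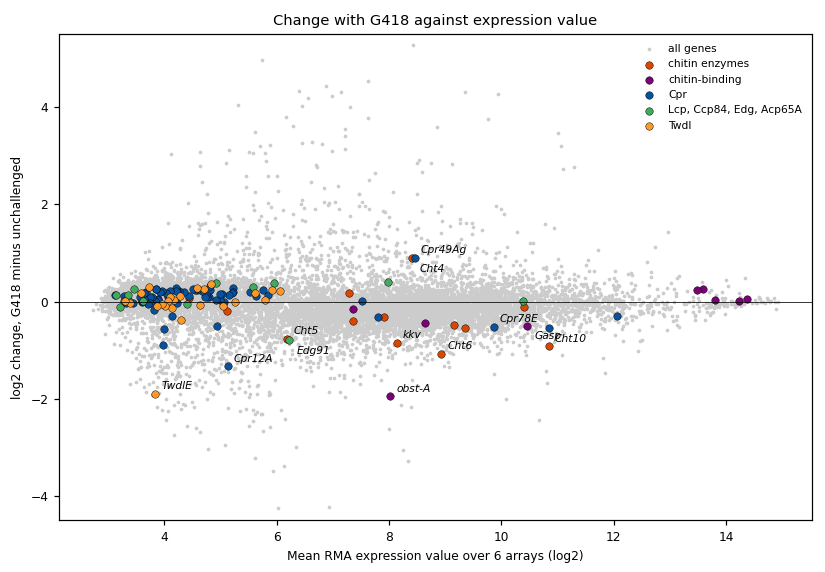
Log2 change with G418 (y axis) against the mean RMA value over 6 arrays (log2, x axis) for all 11982 genes (grey) and the 126 members, coloured by family. Members lie within the cloud of all genes, with obst-A at -1.95, TwdlE at -1.90 and Cpr12A at -1.33 the lowest and Cpr49Ag and Cht4 the highest, at 0.90 and 0.89.

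The comparison of F3 larvae asked whether past exposure in F1 left a difference in larvae that were not challenged themselves. It rests on 1 array each, with no replicate check and no test. Of the 126 members, 4 (3.17%) differed at least 2-fold, against 1.54% of all genes. All 4 were among the 51 brighter members, 7.84% of them, against 2.19% of all genes at or above the median probe set. Cht8 was brighter only through its F3 array without past exposure. Cpr49Ac was 2.81-fold lower with past exposure, obst-A 2.50-fold lower and Cht8 2.06-fold lower, where 1.11% of all genes were 2-fold lower. Cpr49Ag was higher, by 1.38 on the log2 scale, where 0.434% of all genes were 2-fold higher. Cht8 was at 4.91 and 5.10 in unchallenged larvae, 5.03 and 4.60 after G418 and 6.05 and 5.01 in F3 larvae, so its F3 array without past exposure was the high one.

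The 2 unchallenged arrays differed by 1.86 for Cpr49Ag and by 1.78 for obst-A, more than the F3 arrays did (1.38 and 1.32), and by 0.12 for Cpr49Ac and 0.19 for Cht8. With past exposure the 4 fat body markers were higher by a median of 3.73 the 5 haemocyte markers by 0.90 and the 4 muscle markers by 0.82. The part of these tissues in the result was not tested. The next largest F3 differences among brighter members were 0.99 for Cht7, 0.82 for Lcp65Ac, 0.62 for obst-E and -0.55 for Cht5. The median difference was 0.021 over all members and 0.015 over all genes. Over the 22 chitin enzymes and chitin-binding proteins it was 0.13, with 16 positive (72.7%) against 54.5% of the brighter genes and 53.2% of all genes.

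The F3 arrays as a pair also stood apart from the other 4 arrays for some members. Both F3 arrays were above all 4 others for 31 members (24.6%), against 11.6% of all genes, and below for 3 (2.38%), against 7.13%. Among the 31 were obst-B, obst-F, obst-G, obst-H, obst-J, serp, verm, Cht2, Cpr51A, Cpr78E and Edg91. The labels do not set F3 larvae against the others as a comparison, generation and array cannot be told apart here, and fat body markers were lowest on both F3 arrays.

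Between the 2 unchallenged arrays 11 members (8.73%) differed at least 2-fold, against 8.56% of all genes. Higher on replicate 2 were Cpr12A, TwdlE, obst-A, Cpr65Ec and Cht6, 5 members where the share of all genes was 4.58%. Lower there were Cpr49Ag, Cpr100A, Cpr47Eb, Cpr11A, Lcp65Ac and Cpr47Ec, 6 members where it was 3.98%. Cpr100A and Cpr11A are named after their values were seen. Between the 2 G418 arrays 3 members (2.38%) did so, against 4.0% of all genes: Cht6, obst-A and serp, all higher on replicate 2, as were 2.15% of all genes. Of the 4 members 2-fold apart in F3, 2 (50%) were among the 11 of the unchallenged pair, of which they were 18.2%. For both, Cpr49Ag and obst-A, replicate 2 minus 1 and F3 with minus without past exposure had opposite signs. The same overlap was not computed over all genes, so nothing is read from it.

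**Figure D4:**
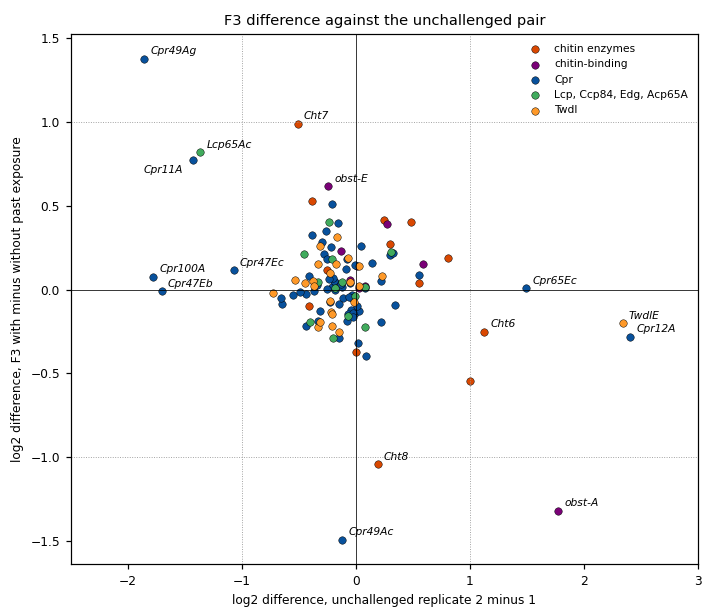
Each point is 1 of the 126 members, with the log2 difference between unchallenged replicates 2 and 1 on the x axis and that between F3 larvae with and without past exposure on the y axis. Dotted lines mark 2-fold. Cpr49Ag (upper left) and obst-A (lower right) are beyond 2-fold on both axes, and Cpr49Ac and Cht8 only in F3.

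Other genes of chitin and cuticle metabolism surround these members, and 0 genes in any of 5 lists passed the limma test. Of 9 genes for chitin synthesis and its precursors 6 had a positive and 3 a negative change with G418. Gnpnat, which acetylates glucosamine phosphate, was at 10.04 and 9.85 on the unchallenged arrays and 10.74 and 10.32 on the G418 arrays. Gfat1, which makes the first amino sugar of the pathway, was at 12.30 and 12.28 against 11.32 and 12.14. The synthase of the midgut, Chs2, was at 9.69 and 9.13 against 9.04 and 9.80, with a log2 change of 0.01 where that of kkv was -0.85.

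In the list of chitin assembly and deacetylation 3 of 6 were positive and 3 negative. Cda4, a deacetylase, was at 8.29 and 8.62 on the unchallenged arrays and 7.23 and 7.99 on the G418 arrays. knk, which organises chitin fibres, was at 8.83 and 9.43 against 7.94 and 8.94. Cda9, another deacetylase, ran from 14.18 to 14.38 over the 6 arrays, near the top of the scale, where a change can be compressed. Of 8 genes for chitin turnover and chitinase-like proteins 4 were positive and 4 negative. Idgf3, a chitinase-like growth factor, was at 9.94 and 9.67 against 10.65 and 10.48.

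Of 11 sclerotization and pigmentation genes 5 were positive and 6 negative. Pu, which starts the synthesis of pterins, was at 10.30 and 8.67 on the unchallenged arrays and 7.98 and 8.98 on the G418 arrays. Of 11 genes of the apical matrix 5 were positive and 6 negative. G418 was wholly below unchallenged for 5 of the 11, against 20.1% of all genes and 26.2% of those at or above the median probe set. These 5 included the zona pellucida domain genes tyn and neo, with log2 changes of -1.06 and -1.62, and pio at -0.84. resilin, an elastic cuticle protein, had both G418 arrays above and a log2 change of 0.31. Of 11 ecdysone genes 8 were negative (median -0.51), as were 52.3% of all genes and 63.9% of those at or above the median probe set. ftz-f1, a nuclear receptor of moult timing, was at 4.73 and 4.66 against 5.49 and 5.99 with G418 and at 4.73 and 6.16 in F3 larvae. Hr39 went the other way, at 9.90 and 10.24 against 9.05 and 9.60 with G418. The labels give the stage only as an instar, and the part of timing within it was not tested.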

How the data were processed

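Expression was measured in larval proventriculus RNA on 6 single-colour Affymetrix Drosophila 2.0 arrays. The deposited values are log2 expression values. The submitters' processing notes name RMA and the Affymetrix Expression Console; whether all arrays were normalized together is not given in the sources used here. RMA subtracts background, quantile-normalizes and summarises probes, so a tissue that differs between arrays can shift the values of other genes too. The number of arrays limits the precision, and no read depth applies.

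Of 18952 probe sets, 183 controls were left out and 18769 were tested. Probe sets were named from the GEO platform annotation: 13647 carried 1 symbol, 402 several (used for no gene) and 4720 none. All 126 member symbols were found in the RefSeq gene table, which served only for names and neighbours: neighbours are members with no other protein-coding gene between them. Groups were taken from the sample labels. G418 and unchallenged arrays (2 against 2) were compared with limma 3.58.1 in R 4.3.3 (lmFit and eBayes), Benjamini-Hochberg over all 18769 probe sets and a threshold of 0.05, tested on simulated data. An exact two-sided permutation test of 2 against 2 cannot go below 0.333. The F3 arrays are 1 against 1 and were not tested.

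The members, gene lists and tests were chosen with earlier results of these data known. Values on every array are given for kkv, serp, verm, Gasp and the obst- genes, the 12 members with the smallest limma p, the 8 brighter members furthest apart in F3 and the 8 furthest apart between unchallenged arrays, and up to 3 members with the highest mean per family. The Cpr genes were taken as 1 family for this. Brighter means a mean at or above the median probe set, which 5 members (Cpr12A, Cht8, Cpr47Ec, Cpr31A and Cpr30B) reached only through their highest array, so counts over brighter members are descriptions. Lists give up to 3 genes of smallest p, and any further gene of a list was chosen after its values were seen. Alternatives were leaving out each array, the replicate number as a block, other variance priors, further quantile normalization, median centring, a filter on dim probe sets, the mean of a gene's probe sets, updated symbols, and limits of 0.1 and 1.5-fold. The replicate numbers are only numbers: same-numbered arrays deviated together with r = 0.315, which 2 pairs cannot settle.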

Additional observations from a re-analysis of the deposited data

How the results depend on the processing

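The count of 0 members called by limma ranged from 0 to 2 when 1 array was left out, the 2 being Cpr12A (adjusted p = 0.0368) and TwdlE (adjusted p = 0.0357) without unchallenged replicate 1; a lone array is there assumed to vary like the other group. It stayed at 0 under every other alternative run, among them the replicate block, under which 2187 probe sets and 13 members had an unadjusted limma p under 0.05 against 664 and 4 without it, the lowest adjusted p of a member being 0.291. The count of 40 members whose groups did not overlap ranged from 63 to 99 with 1 array left out, since fewer arrays must then be separated. It was 16 of the 51 brighter members (31.4%), against 40.1% of all brighter genes. At 1.5-fold 8 members were apart in F3 and 17 between the unchallenged arrays. The share of all genes was not computed at 1.5-fold or for non-overlap with 1 array left out, so those counts are descriptions. Of the brighter members 7 (13.7%) were 2-fold apart between the unchallenged arrays, against 9.6% of all brighter genes. Of these 7, Cpr12A and Cpr47Ec are brighter only through the array where they are high.

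Of 42 genes given on every array, 28 kept the sign of their G418 change with any 1 array left out. The log2 change ranged from -0.64 to 0.0335 for Cpr49Ac, -0.0288 to 1.83 for Cpr49Ag, -1.17 to 0.53 for Cpr47Eb, -0.54 to 0.53 for Cpr47Ec, -0.66 to 0.70 for Lcp65Ac, -0.0063 to 0.42 for TwdlK and -0.23 to 0.30 for Twdlbeta. It ranged from -0.97 to 0.0222 for verm, -0.0025 to 0.0994 for obst-J, -0.0342 to 0.053 for obst-F, -0.0021 to 0.0499 for obst-G, -0.32 to 0.0069 for obst-E, -0.42 to 0.21 for Cht2 and -0.40 to 0.0253 for Cht8. Median centring turned obst-F to -0.0049 and quantile normalization turned obst-E to 0.0154. The cause was not tested. With 2 arrays per group, changes the size of the spread between replicates were not detectable, and the 75 dim members have values where signal over background limits any difference.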

Other observations

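For the change with G418, the second and further probe sets of members gave smaller differences than the probe set used. For Cht6 the log2 change with G418 was -1.07 on the probe set used, -0.70 on the second and -0.18 on the third. For Cpr47Ef it was 0.23 and 0.07, for Lcp65Aa 0.40 and 0.12, and for obst-E -0.16 and -0.05. The direction of the G418 change was the same on each. Other differences did not follow this order: between the F3 arrays Cht6 gave -0.25 on the probe set used and -0.33 on the second, and Lcp65Aa 0.05 and -0.27, and between the unchallenged arrays obst-E gave -0.24 and -0.34. The further probe sets were also the dimmer ones by the rule that chose between them.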
